A study of Mus musculus with 10 samples.

Results

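The genes described here are those of DNA replication and S phase, the phase of the cell cycle in which a cell copies its genome. They were chosen by symbol, as genes of the replication machinery and its control: 43 gene symbols were matched to rows of the count table through their Ensembl IDs, and 43 of the 49671 rows were found. RNA was sequenced from mouse TH2 cells (CD4+ helper T cells making IL-4, IL-5 and IL-13) on day 5 of polarization in culture. All mice were labelled C57BL/6 and genotype WT and were offspring of the second generation. The 3 control libraries came from mice on a regular diet that held vitamin D3 at 400 IU per kg. The 7 deficient libraries came from mice bred and kept without UV light on a diet with no vitamin D metabolites. Batch 1 held 2 control and 5 deficient libraries, and batch 2 held 1 control and 2 deficient libraries. No age or sex is given in the labels, nor whether the libraries came from separate mice or cultures, so the p-values rest on a spread between samples that may be technical.

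Replication begins before S phase, when the origin recognition complex, Cdc6 and Cdt1 load rings of the MCM helicase onto origins. In S phase the kinases Cdk2 and Cdc7 switch the helicase on by recruiting Cdc45 and the GINS complex. Polymerase alpha with primase then lays down primers, polymerases delta and epsilon extend them on the sliding clamp PCNA, and Fen1 and Lig1 join the pieces of the lagging strand. The genes of this machinery, and those of the enzymes that make deoxynucleotides, are classical targets of E2F transcription factors, which are released from RB proteins when cyclin D and cyclin E kinases become active. Activated T cells divide fast, so these genes are high in cultured helper T cells.

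Levels are given as CPM, the counts of a gene scaled to the plain total of its library, and differences as log2 fold changes, deficient minus control, from an edgeR quasi-likelihood fit to all genes with diet and batch as terms. Genes with a Benjamini-Hochberg adjusted p under 0.05 passed. Signed differences with no unit are log2 fold changes, values with ± are means and SD over the 3 control or 7 deficient libraries, and coordinates are those of GENCODE M21 on GRCm38. The fit scaled the totals by TMM, which set the median log2 fold change of all 13699 genes tested at 0.02, against 0.10 with plain totals, so CPM values of deficient libraries look slightly higher than the fitted differences. Libraries held 5800698 to 6462146 counts in controls and 7029207 to 13433276 counts in deficient samples. The T cell genes Cd3d, Cd3g, Cd3e and Cd4 and the TH2 genes Gata3, Il4, Il5 and Il13 were present in all 10 libraries. The 4 T cell genes summed to 1289 to 1301 CPM in controls and 779 to 901 CPM in deficient libraries. Summed markers of other cells were uneven: 2 CD8 T cell genes summed to 7.59 to 16.4 CPM in controls, 28.3 to 49.3 CPM in deficient libraries 1 to 4 and 119 to 155 CPM in libraries 5 to 7. For 4 B cell genes these ranges were 3.62 to 61.3 CPM, 12.98 to 30.7 CPM and 113 to 130 CPM, with control library 3 the highest control. For 3 NK cell genes they were 0.962 to 3.56 CPM, 1.00 to 2.28 CPM and 4.57 to 5.06 CPM. The 5 dendritic cell and macrophage genes summed to 6.21 to 8.82 CPM in controls and 11.9 to 19.4 CPM in deficient libraries. The 3 neutrophil and 4 erythroid genes summed to at most 0.711 CPM, and Hba-a1 was at 0 in every library. Libraries were made with a globin kit, so the globin genes Hba-a1 and Hbb-bs cannot show whether erythroid cells were present. Deficient libraries 1 and 3 held the female transcript Xist.

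The replication genes did not move together between the diets. All 43 passed the filter on low counts. In deficient cells 13 of them were higher, against 29.4% of all genes tested, 8 were lower, against 28.6%, and 22 did not pass (edgeR, adjusted p below 0.05), while 58.0% of all genes tested passed in either direction. These shares of 30.2% and 18.6% are near or below the background, and the median log2 fold change was 0.05. The highest rises were those of Ccne2, Fen1 and Rrm2, at 1.41, 0.82 and 0.81, and the largest falls those of Lig1, Gins2 and Gins4, at -0.75, -0.73 and -0.55. All 7 deficient libraries lay above all 3 controls in CPM for 13 members and below them for 5, against 29.4% and 21.4% of all genes tested, and the groups overlapped for 25. With counts thinned to the total of the shallowest library 14 members were higher and 8 lower, against 30.2% and 29.6% of the 12398 genes tested there. The marker sums above moved with diet, and their part in these differences was not tested. In whole-culture RNA, fewer cells in S phase and less RNA per cell cannot be told apart.

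**Figure D1:**
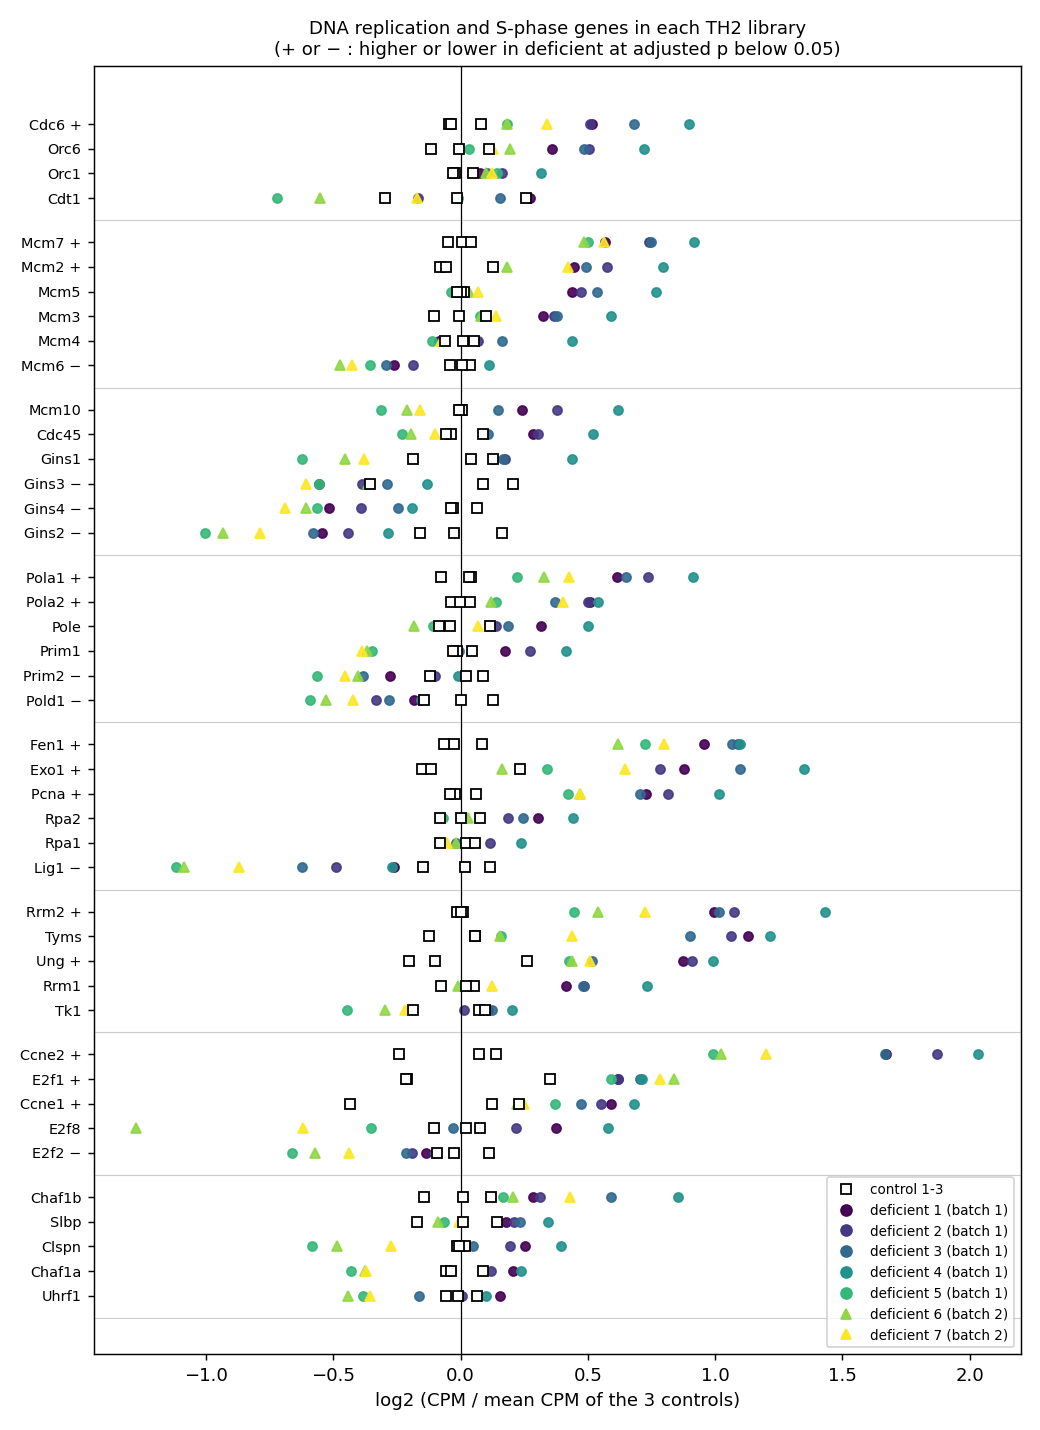
Each row is a gene and each point a library, placed by log2 of its CPM over the mean of the 3 controls (open squares); filled circles are batch 1 and triangles batch 2 of the deficient group, and rows are grouped by role. Ccne2, Fen1, Rrm2 and Pcna lie wholly to the right of the controls, Gins2, Gins4 and Lig1 wholly to the left, and deficient library 4 is the rightmost point in most rows.

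Among the genes of origin recognition and licensing 1 of 4 passed, against 58.0% of all genes tested. Cdc6 (ENSMUSG00000017499, chromosome 11, 98907801 to 98923940), the ATPase that loads the MCM ring with Cdt1, stood at 26.0, 28.4 and 26.2 CPM across the controls, while the deficient libraries gave, from 1 to 7, 38.4, 38.2, 43.1, 49.96, 30.5, 30.4 and 34.0 CPM. Every deficient library lay above every control, libraries 5 and 6 only slightly, and Cdc6 rose by 0.38 log2 units (SE 0.13, adjusted p = 0.0171, edgeR). Orc6 (ENSMUSG00000031697, chromosome 8, 85299632 to 85308278), the smallest subunit of the origin recognition complex, stood at 41.4, 44.6 and 48.4 CPM across the controls, while the deficient libraries gave, from 1 to 7, 57.5, 63.5, 62.7, 73.7, 45.8, 51.2 and 48.9 CPM. Only library 5 fell inside the range of the controls, the other 6 lay above it, and the difference of 0.26 log2 units (SE 0.13, adjusted p = 0.0915, edgeR) did not pass. Orc1, the ATPase subunit of that complex, was at 24.5 ± 0.744 CPM in controls against 27.2 ± 1.55 CPM in deficient libraries, with a fitted difference of 0.06 (adjusted p = 0.542, edgeR). Cdt1, the loading partner of Cdc6, was low, at 8.18 ± 1.56 CPM in controls against 7.46 ± 1.77 CPM in deficient libraries (-0.24, adjusted p = 0.335, edgeR). Cdc6 no longer passed without control library 1 or 2, under limma-voom or within batch 2, where it was at 0.23 (adjusted p = 0.23, edgeR).

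The 6 subunits of the MCM ring, which act in equal numbers in the loaded helicase, split in direction: Mcm7 and Mcm2 rose, Mcm6 fell, and Mcm3, Mcm4 and Mcm5 did not pass. Mcm7 (ENSMUSG00000029730, chromosome 5, 138164583 to 138172422) stood at 77.6, 79.5 and 74.6 CPM across the controls, while the deficient libraries gave, from 1 to 7, 114, 129, 129.7, 146, 109, 108 and 114 CPM. No deficient library reached down to the controls, and the rise was 0.56 log2 units (SE 0.08, adjusted p = 2.26e-05, edgeR). Mcm2 (ENSMUSG00000002870, chromosome 6, 88883474 to 88898780) was measured at 70.0, 81.0 and 71.2 CPM across the controls, while the deficient libraries gave, from 1 to 7, 101, 110.4, 104, 128, 80.8, 84.0 and 99.1 CPM. Library 5 lay just under the highest control, the other 6 above it, and Mcm2 rose by 0.35 log2 units (SE 0.11, adjusted p = 0.0177, edgeR), a call that ended without control library 1. Mcm6 (ENSMUSG00000026355, chromosome 1, 128331590 to 128359664) stood at 301, 295 and 285 CPM across the controls, while the deficient libraries gave, from 1 to 7, 245, 258, 239, 317, 229.6, 211 and 218 CPM. Only library 4 exceeded the controls, the other 6 lay below all of them, and Mcm6 changed by -0.36 log2 units (SE 0.08, adjusted p = 0.000935, edgeR). Mcm5, Mcm3 and Mcm4 had fitted differences of 0.24, 0.19 and -0.04 (adjusted p = 0.169, 0.0925 and 0.751, edgeR), with libraries 5 to 7 close to the controls and library 4 highest in each case. The call of Mcm7 carries a limit, since 18.1% of its 50-base stretches also occur in another annotated transcript, mainly the gene Gm5487.

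The promoters of Mcm6, which fell, of Mcm2 and Pola1, which rose, and of Cdc6 are shown because they carry, or lack, matches to the core of an E2F site. The sequences are the 150 bases before the transcription start, on the gene's own strand, from RefSeq (GRCm38.p6). They lie at chr1:128359706-128359855 (minus strand), chr6:88898781-88898930 (minus), chrX:93632156-93632305 (minus) and chr11:98908001-98908150 (plus), outside annotated exons, and the Cdc6 window lies inside the longer GENCODE gene. Capitals mark the E2F core TTTNNCGC and the CCAAT box, on either strand; overlapping matches run together in capitals.
Mcm6: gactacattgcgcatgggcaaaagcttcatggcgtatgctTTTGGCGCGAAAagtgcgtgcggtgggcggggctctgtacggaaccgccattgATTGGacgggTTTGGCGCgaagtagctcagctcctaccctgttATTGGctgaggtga
Mcm2: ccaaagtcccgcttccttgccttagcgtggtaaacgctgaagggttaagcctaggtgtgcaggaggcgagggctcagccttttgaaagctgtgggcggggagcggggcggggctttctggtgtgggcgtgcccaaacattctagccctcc
Pola1: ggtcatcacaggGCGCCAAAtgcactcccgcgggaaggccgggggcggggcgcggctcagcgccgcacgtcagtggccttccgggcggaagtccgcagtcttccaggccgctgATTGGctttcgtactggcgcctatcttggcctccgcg
Cdc6: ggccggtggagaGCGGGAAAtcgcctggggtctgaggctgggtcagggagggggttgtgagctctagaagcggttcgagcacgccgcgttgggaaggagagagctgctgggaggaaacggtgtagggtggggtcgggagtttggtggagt
Mcm6 held 3 matches to the E2F core, of which the pair at 110 and 106 bases before the start overlap on opposite strands, and 2 CCAAT boxes. Pola1 and Cdc6 each held 1 E2F match, 138 bases before the start, and Pola1 also 1 CCAAT box. Mcm2 held neither motif in these 150 bases. A match is a description of letters and not a bound site.

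In the step that switches the helicase on, 3 of 6 genes fell and 0 rose, against 28.6% and 29.4% of all genes tested. GINS is a complex of 4 different proteins that bridges the helicase and polymerase epsilon, and Gins2, Gins3 and Gins4 were lower while Gins1 did not pass. Gins2 (ENSMUSG00000031821, chromosome 8, 120578633 to 120589304) stood at 33.1, 29.0 and 26.5 CPM across the controls, while the deficient libraries gave, from 1 to 7, 20.2, 21.8, 19.8, 24.2, 14.7, 15.5 and 17.1 CPM. All deficient libraries lay below all controls, with libraries 5 to 7 lowest, and Gins2 changed by -0.73 log2 units (SE 0.13, adjusted p = 0.000142, edgeR). Gins4 (ENSMUSG00000031546, chromosome 8, 23226616 to 23237659) stood at 45.9, 42.97 and 42.7 CPM across the controls, while the deficient libraries gave, from 1 to 7, 30.7, 33.4, 37.0, 38.5, 29.7, 28.8 and 27.2 CPM. Its groups did not overlap either, with a change of -0.55 log2 units (SE 0.09, adjusted p = 8.49e-05, edgeR). Gins3 changed from 18.8 ± 3.65 CPM to 14.2 ± 1.72 CPM (log2 fold change -0.49, SE 0.13, adjusted p = 0.00539, edgeR), and control library 1, at 14.7 CPM, lay within the deficient range. The call of Gins3 ended without control library 2 and within batch 1, at -0.43 (adjusted p = 0.0529, edgeR). Gins1 had means of 13.6 ± 1.49 CPM in controls against 13.3 ± 3.55 CPM in deficient libraries (-0.15, adjusted p = 0.49, edgeR). Exons of Gins2 share 67.3% of their bases with Gse1 on the other strand, and as no source here gives the strand setting of the counting, reads of the pair may be mixed.

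Cdc45 (ENSMUSG00000000028, chromosome 16, 18780447 to 18811987), the third part of the active helicase, had the highest adjusted p of all members. It stood at 55.5, 54.7 and 60.5 CPM across the controls, while the deficient libraries gave, from 1 to 7, 69.3, 70.2, 61.3, 81.6, 48.6, 49.7 and 53.1 CPM. Libraries 1 to 4 lay above the controls and libraries 5 to 7 below them, and the fitted difference was 0.01 log2 units (SE 0.14, adjusted p = 0.937, edgeR). Within batch 2 alone, which held a lone control, it was -0.30. Without libraries 5 to 7 it was 0.27 (adjusted p = 0.0252, edgeR). That choice of libraries was made after the data were seen, so its p-value is no evidence of a rise. Mcm10, which helps the helicase start, showed the same order of libraries, with 48.3 to 48.6 CPM in controls, 53.6 to 74.4 CPM in libraries 1 to 4 and 39.0 to 43.4 CPM in libraries 5 to 7 (0.02, adjusted p = 0.923, edgeR). Mcm10 passed only without libraries 5 to 7, at 0.27 (adjusted p = 0.0437, edgeR), with the same limit.

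Primase and the polymerases were mixed: both measured subunits that are specific to polymerase alpha rose, while Prim2 and the catalytic subunit of polymerase delta fell. Pola1 (ENSMUSG00000006678, chromosome X, 93304767 to 93632155), the catalytic subunit of polymerase alpha, stood at 87.9, 81.0 and 87.3 CPM across the controls, while the deficient libraries gave, from 1 to 7, 131, 142, 134, 161, 99.5, 107 and 115 CPM. It was higher in every deficient library, by 0.47 log2 units (SE 0.12, adjusted p = 0.0053, edgeR). Pola2 (ENSMUSG00000024833, chromosome 19, 5940542 to 5964202), its accessory subunit, stood at 40.0, 42.2 and 41.0 CPM across the controls, while the deficient libraries gave, from 1 to 7, 58.3, 58.1, 53.1, 59.7, 45.2, 44.7 and 54.3 CPM. The groups did not overlap, though libraries 5 and 6 were within 5 CPM of the controls, and the rise of 0.28 log2 units (SE 0.10, adjusted p = 0.0221, edgeR) was lost without control library 1 or 2, under limma-voom and within batch 2 (0.20, adjusted p = 0.252, edgeR). Pold1 (ENSMUSG00000038644, chromosome 7, 44532746 to 44548849), the catalytic subunit of polymerase delta, stood at 65.2, 71.2 and 59.0 CPM across the controls, while the deficient libraries gave, from 1 to 7, 57.4, 51.8, 53.6, 58.4, 43.2, 45.2 and 48.6 CPM. All 7 deficient libraries lay below the lowest control, and Pold1 changed by -0.44 log2 units (SE 0.09, adjusted p = 0.000494, edgeR). Prim2, the large primase subunit, changed from 43.4 ± 3.20 CPM to 35.2 ± 4.96 CPM (log2 fold change -0.39, SE 0.11, adjusted p = 0.00575, edgeR), a call that ended without control library 1 or 3, without libraries 5 to 7 and within batch 1. Prim1, the small primase subunit that makes the primer, had means of 88.8 ± 2.40 CPM in controls against 88.7 ± 20.6 CPM in deficient libraries (-0.12, adjusted p = 0.488, edgeR). Pole, the catalytic subunit of polymerase epsilon, had a difference of 0.05 (adjusted p = 0.735, edgeR).

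Behind the fork, the sliding clamp and the flap nuclease rose while the ligase fell. Fen1 (ENSMUSG00000024742, chromosome 19, 10199132 to 10204169), which trims the flap between Okazaki fragments, stood at 39.0, 36.1 and 35.1 CPM across the controls, while the deficient libraries gave, from 1 to 7, 71.2, 78.1, 77.0, 78.6, 60.8, 56.4 and 63.9 CPM. All deficient libraries were well above all controls, and the rise was 0.82 log2 units (SE 0.09, adjusted p = 2.98e-06, edgeR), the lowest adjusted p among the members. Pcna (ENSMUSG00000027342, chromosome 2, 132249162 to 132253314), the clamp, stood at 151, 149 and 160.0 CPM across the controls, while the deficient libraries gave, from 1 to 7, 254, 270.1, 249.7, 310.1, 205, 212 and 213 CPM. Its lowest deficient library was above its highest control, and the rise was 0.57 log2 units (SE 0.10, adjusted p = 0.0004, edgeR). Exo1 (ENSMUSG00000039748, chromosome 1, 175880581 to 175913489), a nuclease of mismatch repair and end processing, stood at 16.7, 17.2 and 21.8 CPM across the controls, while the deficient libraries gave, from 1 to 7, 34.2, 32.0, 39.7, 47.3, 23.5, 20.8 and 29.1 CPM. Library 6 overlapped the controls, and its rise of 0.67 log2 units (SE 0.25, adjusted p = 0.0421, edgeR) no longer passed in 9 of the 24 alternative fits, namely those without control library 1 or 2, without deficient library 1, 2, 3, 7 or both 1 and 3, by limma-voom and within batch 2, where it was at 0.11 (adjusted p = 0.687, edgeR).

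Lig1 (ENSMUSG00000056394, chromosome 7, 13277283 to 13311433), the ligase that seals Okazaki fragments, stood at 78.6, 88.3 and 94.6 CPM across the controls, while the deficient libraries gave, from 1 to 7, 72.7, 62.2, 56.6, 72.4, 40.2, 41.1 and 47.7 CPM. It was below all controls in every deficient library, nearest in libraries 1 and 4 and furthest in library 5, and changed by -0.75 log2 units (SE 0.19, adjusted p = 0.00846, edgeR). Without control library 3 this was no longer a call, and the same held within batch 1 and without a count filter. Rpa1 and Rpa2, subunits of the complex that coats single-stranded DNA, had fitted differences of -0.04 and 0.06 (adjusted p = 0.559 and 0.61, edgeR). Rpa1 was among the least variable members, at 142 ± 6.99 CPM in controls against 147 ± 10.5 CPM in deficient libraries. For Pcna 19.1% of its 50-base stretches also occur in another transcript, mainly Pcna-ps2. Exons of Fen1 overlap the antisense gene Gm10143 over 78.8% of their bases, but that gene held 16 counts in all 10 libraries together.

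Of the enzymes of nucleotide supply and uracil removal, 2 of 5 were higher and 0 lower, against 29.4% and 28.6% of all genes tested. Rrm2 (ENSMUSG00000020649, chromosome 12, 24708241 to 24714146), the S-phase subunit of ribonucleotide reductase, stood at 64.0, 64.9 and 64.7 CPM across the controls, while the deficient libraries gave, from 1 to 7, 129, 136, 130.5, 174, 87.9, 93.9 and 107 CPM. The controls lay within 1 CPM of each other, every deficient library was above them, and library 4 was furthest, for a rise of 0.81 log2 units (SE 0.18, adjusted p = 0.00364, edgeR). Its partner Rrm1, the large subunit, had means of 219 ± 10.2 CPM in controls against 279 ± 53.5 CPM in deficient libraries and did not pass (0.23, adjusted p = 0.1, edgeR). Tyms, which makes thymidylate, was at 40.9, 36.1 and 40.9 CPM across the controls, while the deficient libraries gave, from 1 to 7, 85.8, 82.1, 73.3, 91.2, 43.8, 43.7 and 53.1 CPM. Although all deficient libraries lay above all controls, libraries 5 and 6 barely did, and Tyms missed the threshold at 0.64 log2 units (SE 0.26, adjusted p = 0.0602, edgeR). It passed in 10 of the 24 alternative fits, DESeq2 and limma-voom among them. Tk1, the thymidine salvage kinase, differed by -0.16 (adjusted p = 0.32, edgeR). Ung (ENSMUSG00000029591, chromosome 5, 114130386 to 114139323), which removes uracil from DNA, was low, at 7.24, 6.73 and 9.28 CPM across the controls, while the deficient libraries gave, from 1 to 7, 14.2, 14.6, 11.1, 15.4, 10.4, 10.5 and 11.02 CPM. Its deficient libraries lay above the controls throughout, and the rise was 0.59 log2 units (SE 0.18, adjusted p = 0.0101, edgeR), lost without control library 1 or 2 and within batch 2, where it was at 0.15 (adjusted p = 0.633, edgeR).

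Of the E2F factors and E cyclins, which drive entry into S phase, 3 of 5 rose and 1 fell. Over all genes tested these shares were 29.4% and 28.6%. Ccne2 (ENSMUSG00000028212, chromosome 4, 11191351 to 11204779), cyclin E2, stood at 12.1, 15.7 and 15.0 CPM across the controls, while the deficient libraries gave, from 1 to 7, 45.4, 52.2, 45.2, 58.4, 28.4, 29.0 and 32.7 CPM. Its lowest deficient library was well above the highest control, and the rise of 1.41 log2 units (SE 0.24, adjusted p = 0.00073, edgeR) was the largest among the members. Exons of Ccne2 share 17.4% of their bases with Ints8 on the other strand, which held 7115 counts in all libraries together, so reads of this pair may be mixed. Ccne1 (ENSMUSG00000002068, chromosome 7, 38097984 to 38107534), cyclin E1, stood at 19.0, 27.9 and 30.0 CPM across the controls, while the deficient libraries gave, from 1 to 7, 38.6, 37.5, 35.6, 41.0, 33.2, 29.9 and 30.5 CPM. Control library 1 was low and library 6 fell within the control range, and Ccne1 rose by 0.36 log2 units (SE 0.13, adjusted p = 0.0307, edgeR). That rise no longer passed without control library 1 or 2 or without deficient libraries 1 and 3, and within batch 2 it was -0.05 (adjusted p = 0.801, edgeR). E2f1 (ENSMUSG00000027490, chromosome 2, 154559407 to 154569892), an activator of the family, was low, at 4.83, 4.81 and 7.12 CPM across the controls, while the deficient libraries gave, from 1 to 7, 8.58, 8.57, 9.10, 9.15, 8.42, 9.98 and 9.62 CPM. Control library 3 was the highest control but still below all deficient libraries, and E2f1 rose by 0.63 log2 units (SE 0.14, adjusted p = 0.00149, edgeR). Within batch 2 it was at 0.40 and did not pass (adjusted p = 0.206, edgeR). E2f2, another activator, moved the other way, from 45.9 ± 3.31 CPM to 36.9 ± 5.53 CPM (log2 fold change -0.42, SE 0.11, adjusted p = 0.00446, edgeR), and its groups did not overlap. Within batch 1 it was at -0.35 and did not pass (adjusted p = 0.0538, edgeR). E2f8, a repressor of the family, ran from 3.72 to 13.4 CPM over the deficient libraries and did not pass (-0.23, adjusted p = 0.415, edgeR).

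None of the 5 genes of chromatin assembly, histone mRNA and checkpoint passed, against 58.0% of all genes tested. Chaf1b (ENSMUSG00000022945, chromosome 16, 93883901 to 93906115), a subunit of the histone chaperone that follows PCNA, stood at 16.5, 13.8 and 15.3 CPM across the controls, while the deficient libraries gave, from 1 to 7, 18.5, 18.9, 22.9, 27.5, 17.1, 17.6 and 20.5 CPM. Every deficient library was above the controls, some by little, and the difference was 0.33 log2 units (SE 0.15, adjusted p = 0.0686, edgeR). Uhrf1 (ENSMUSG00000001228, chromosome 17, 56303321 to 56323486), which recruits the maintenance DNA methyltransferase to the new strand, stood at 67.9, 73.7 and 70.1 CPM across the controls, while the deficient libraries gave, from 1 to 7, 78.5, 70.9, 63.0, 75.7, 54.2, 52.0 and 55.2 CPM. Libraries 3 and 5 to 7 lay below the controls and the others within or above their range, with a difference of -0.24 log2 units (SE 0.11, adjusted p = 0.0712, edgeR). Chaf1a, the large subunit of the chaperone, Clspn, the adaptor that passes the fork signal to Chk1, and Slbp, which binds the end of histone mRNA, differed by -0.18, -0.14 and 0.03 (adjusted p = 0.258, 0.544 and 0.825, edgeR). For Uhrf1 15.4% of 50-base stretches occur elsewhere, mainly in Gm5648, and 52.5% of the exon bases of Chaf1a overlap Ubxn6 on the other strand.

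**Figure D2:**
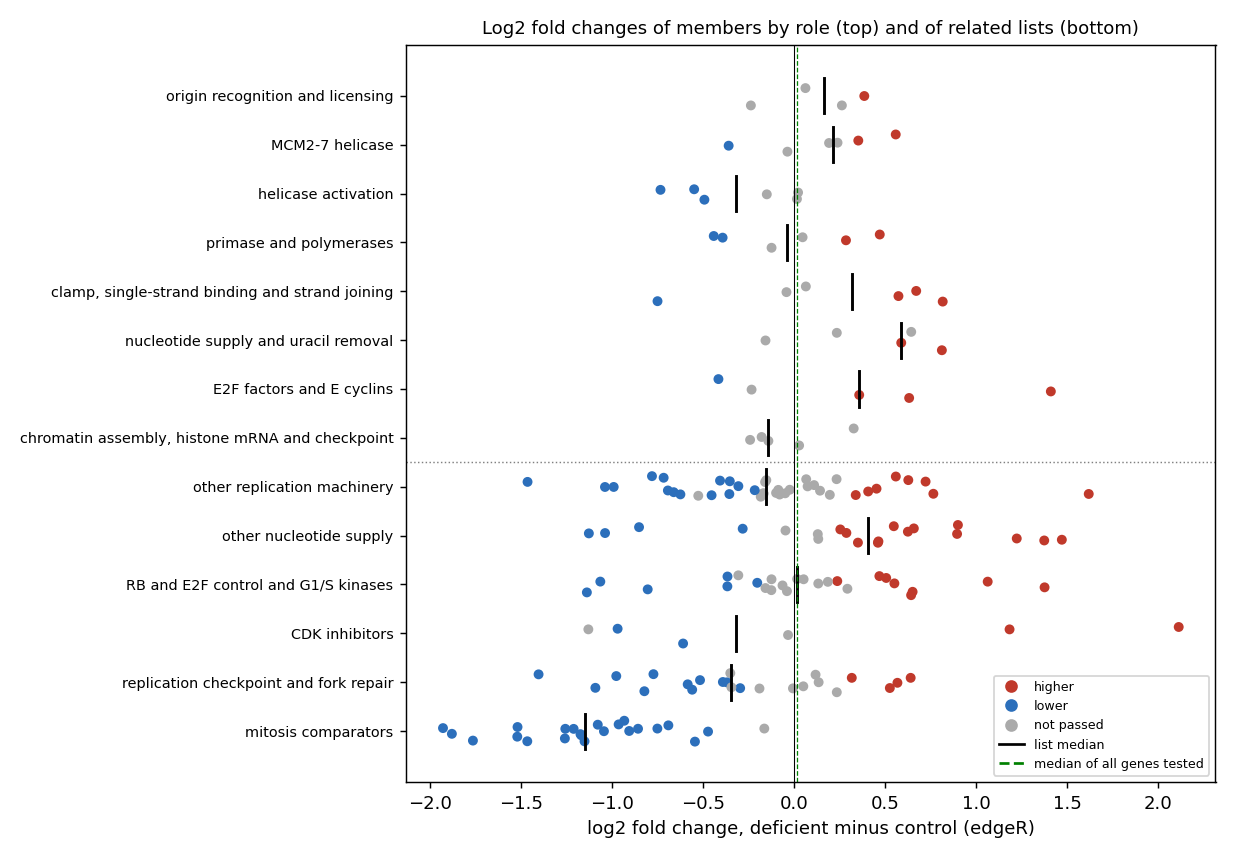
Each point is a gene, placed by its log2 fold change, deficient minus control, and coloured by whether it was higher, lower or did not pass; the 8 role groups of members stand above the dotted line and 6 related lists below it, with black bars at list medians. Members and their close relatives scatter on both sides of 0, whereas all 23 mitosis genes but Mybl2 are coloured as lower.

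Other genes of replication and of entry into S phase were mixed too. Of 39 further genes of the replication machinery 8 were higher and 14 lower, with a median of -0.15. Over all genes tested 29.4% were higher and 28.6% lower. Recql4, a helicase of origin firing, rose from 21.8 ± 1.57 CPM to 71.4 ± 10.1 CPM (log2 fold change 1.62, SE 0.12, adjusted p = 2.91e-08, edgeR), and Supt16, a subunit of the histone chaperone FACT, rose by 0.56. Pold4, the smallest subunit of polymerase delta, changed from 202 ± 0.839 CPM to 77.4 ± 4.82 CPM (log2 fold change -1.46, SE 0.06, adjusted p = 5.98e-11, edgeR), and Cdc7, the kinase that fires origins, by -0.99. Subunits of 1 complex again differed in sign: Orc2 rose by 0.63 while Orc3 and Orc4 changed by -0.72 and -0.63 (adjusted p = 4.83e-05, 2.97e-07 and 1.02e-06, edgeR). Cdc7 and Orc2 were named after their values were seen.

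Nucleotide supply outside the members had 13 of 20 genes higher and 4 lower, with a median of 0.40. Over all genes tested 29.4% were higher and 28.6% lower. Gart, of purine synthesis, rose by 1.47 log2 units (SE 0.09, adjusted p = 2.24e-09, edgeR), and the folate enzymes Mthfd1 and Shmt1 by 0.90 and 1.37. Rrm2b, the subunit that replaces Rrm2 outside S phase, rose by 1.22. Impdh2, of guanine nucleotide synthesis, changed by -1.13 and Paics, of purine synthesis, by -0.85. Dut, which supplies the dUMP that Tyms converts, rose by 0.62 (adjusted p = 1.62e-05, edgeR). Dut, Mthfd1 and Shmt1 were named after their values were seen.

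Among 25 tested genes of RB and E2F control and the G1 kinases, 8 were higher and 6 lower, with a median of 0.02. The shares over all genes tested were 29.4% and 28.6%. Ccnd2, cyclin D2, rose from 226 ± 12.5 CPM to 621 ± 30.1 CPM (log2 fold change 1.37, SE 0.05, adjusted p = 3.47e-11, edgeR), and Tfdp1, the partner protein of E2F factors, from 60.9 ± 2.74 CPM to 135 ± 5.77 CPM (log2 fold change 1.06, SE 0.06, adjusted p = 2.01e-09, edgeR). The RB relatives Rbl2 and Rbl1 changed by -1.06 and -0.80, and Ccna2, cyclin A2 of late S phase and G2, by -1.14 (adjusted p = 0.00102, edgeR). Ccnd1, cyclin D1, was at most 0.469 CPM in any library and was not tested; this gene and Ccna2 were chosen after their values were seen.

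Mitosis genes stood apart from the members in direction: 22 of 23 were lower and 0 higher, with a median of -1.15. The shares over all genes tested were 28.6% lower and 29.4% higher. Kif23 and Cenpa, of the spindle midzone and the centromere, changed by -1.93 and -1.52. Summed over the 43 members, levels were 2777, 2843 and 2825 CPM across the controls, while the deficient libraries gave, from 1 to 7, 3435, 3548, 3434, 4145, 2710.1, 2726 and 2887 CPM. Libraries 5 and 6 were below the controls in this sum, library 7 slightly above them and libraries 1 to 4 clearly above. The 23 mitosis genes summed to 5848, 5672 and 5863 CPM, while the deficient range ran from 2336 to 3840.0 CPM. Within a library the ratio of the member sum to the mitosis sum was 0.475, 0.501 and 0.482 in controls and 1.03, 1.12, 1.06, 1.08, 1.14, 1.17 and 1.13 in deficient libraries 1 to 7. Means were 0.486 ± 0.014 (SD, n = 3) and 1.10 ± 0.047 (SD, n = 7), and the ranges were far apart, in both batches. Much of the mitosis sum came from Top2a and Mki67, at 1622 and 1306 CPM of a mean sum of 5794 CPM in controls. In deficient libraries they gave 915 and 628 CPM of 2978 CPM. The ratio does not depend on how the library totals were scaled, and its use was chosen after the sums were seen.

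**Figure D3:**
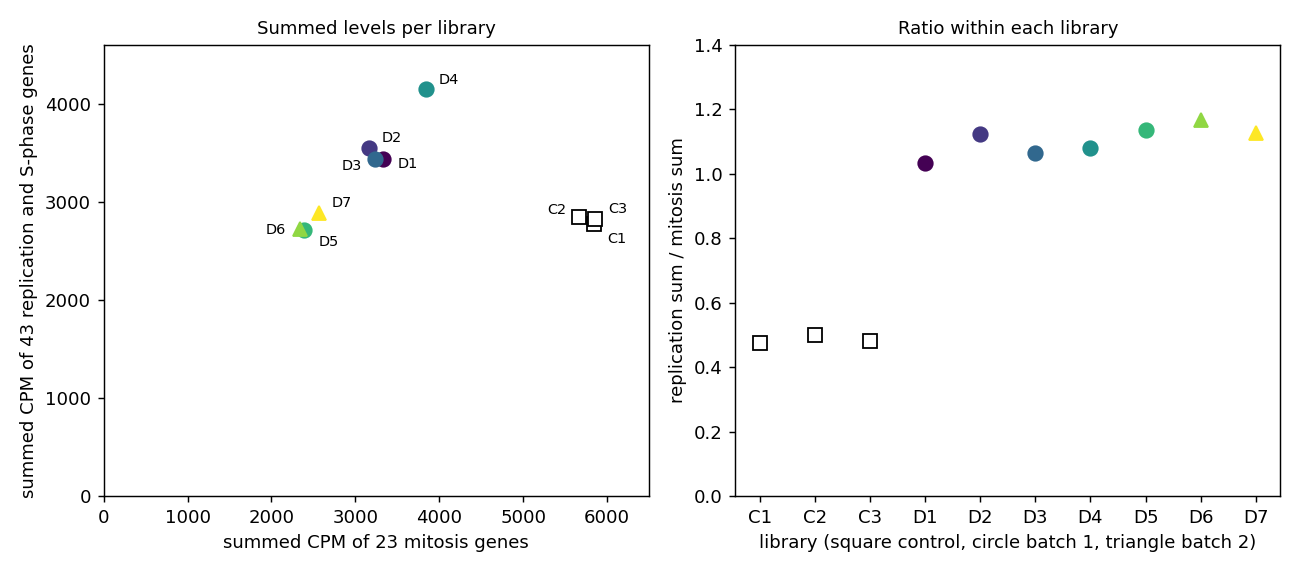
The left panel plots each library by its summed CPM over the 23 mitosis genes (horizontal) and over the 43 members (vertical); the right panel gives the ratio of these sums per library. Controls (squares) sit at 0.475 to 0.501 and deficient libraries (circles batch 1, triangles batch 2) at 1.03 to 1.17, although libraries 5, 6 and 7 have the lowest member sums of the deficient group.

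Genes whose products work as partners changed relative to each other, seen in counts per exon length within each library, for pairs chosen after their values were seen. Mcm6 stood at 3.61 ± 0.086 times Mcm7 in controls (SD, n = 3) and at 1.91 ± 0.12 times in deficient libraries (SD, n = 7). Rrm2 over Rrm1 was 1.17 ± 0.060 and 1.74 ± 0.10, and Ccne2 over Ccne1 was 0.432 ± 0.052 and 0.888 ± 0.16. Lig1 over Fen1 went from 1.35 ± 0.19 to 0.455 ± 0.072. The groups did not overlap for any of these 4 pairs, libraries 5 to 7 included. Because the pairs were chosen with their values known, this separation is no test, and no share over other pairs was computed. For Rrm2b over Rrm2 the groups overlapped, at 0.134 to 0.150 in controls and 0.133 to 0.273 in deficient libraries. Gins2 over Cdc45 was 0.446 ± 0.068 in controls and 0.264 ± 0.010 in deficient libraries, where it varied little although both genes spread widely. Among ratios to mitosis genes, Pcna over Top2a was 0.355 ± 0.017 in controls and 1.01 ± 0.029 in deficient libraries. In all 8 such ratios were computed. Exon lengths cover every annotated transcript, so a ratio compares libraries and not protein amounts.

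**Figure D4:**
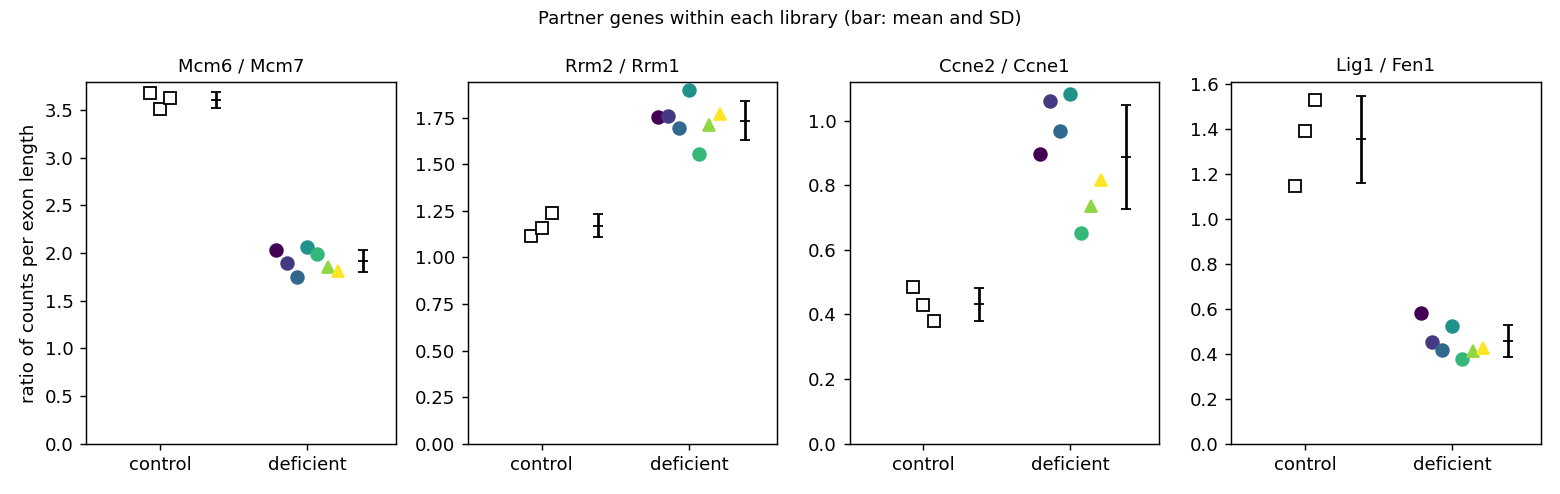
Each panel gives the ratio of counts per exon length of a pair of genes in the 3 control libraries (squares) and 7 deficient libraries (circles batch 1, triangles batch 2), with a bar for mean and SD. Mcm6 over Mcm7 and Lig1 over Fen1 are lower in every deficient library than in any control, and Rrm2 over Rrm1 and Ccne2 over Ccne1 are higher.

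The members varied more over the deficient libraries than over the controls. The median coefficient of variation was 16.8% over the 7 deficient and 6.41% over the 3 control libraries, against 10.1% and 7.38% for the 9869 tested genes with a mean of at least 5 CPM. For the mitosis genes it was 20.1% and 3.74%. The variation had an order: deficient library 4 was highest for 39 of 43 members (23.6% of all genes tested), and libraries 5 to 7 all lay below libraries 1 to 4 for 36 of 43 (13.4%). On TMM-scaled totals these counts were 32 (14.5%) and 37 (13.5%). The median member stood at 0.52 on the log2 scale over the control mean in library 4, at 0.19 to 0.29 in libraries 1 to 3 and at -0.06 to -0.01 in libraries 5 to 7. Members that were exceptions were E2f1, highest in library 6, and Cdt1, Lig1 and Uhrf1, highest in library 1.

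Libraries 5 to 7 were also those of the highest marker sums of CD8 T cells, B cells, NK cells, and dendritic cells and macrophages. The part of these cells in the lower member levels was not tested. Library 5 belongs to batch 1, while libraries 6 and 7 are the 2 deficient libraries of batch 2. The low libraries and the batch label thus overlap in part. Without libraries 5 to 7, an alternative added after the data were seen, 23 members were higher and 7 lower, against 28.5% and 27.9% of all genes tested. The median log2 fold change was then 0.25. In that fit Tyms, Rrm1, Mcm3, Mcm5, Orc6, Chaf1b, Cdc45, Mcm10, Rpa2 and Slbp also passed upward, and Prim2 no longer passed. These libraries were the lowest deficient ones for 36 of 43 members. More upward calls therefore follow from leaving them out, and the fit cannot serve as evidence of a rise. Without deficient libraries 1 and 3, which held Xist, 11 were higher and 9 lower, against 29.7% and 28.3% of all genes tested.

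**Figure D5:**
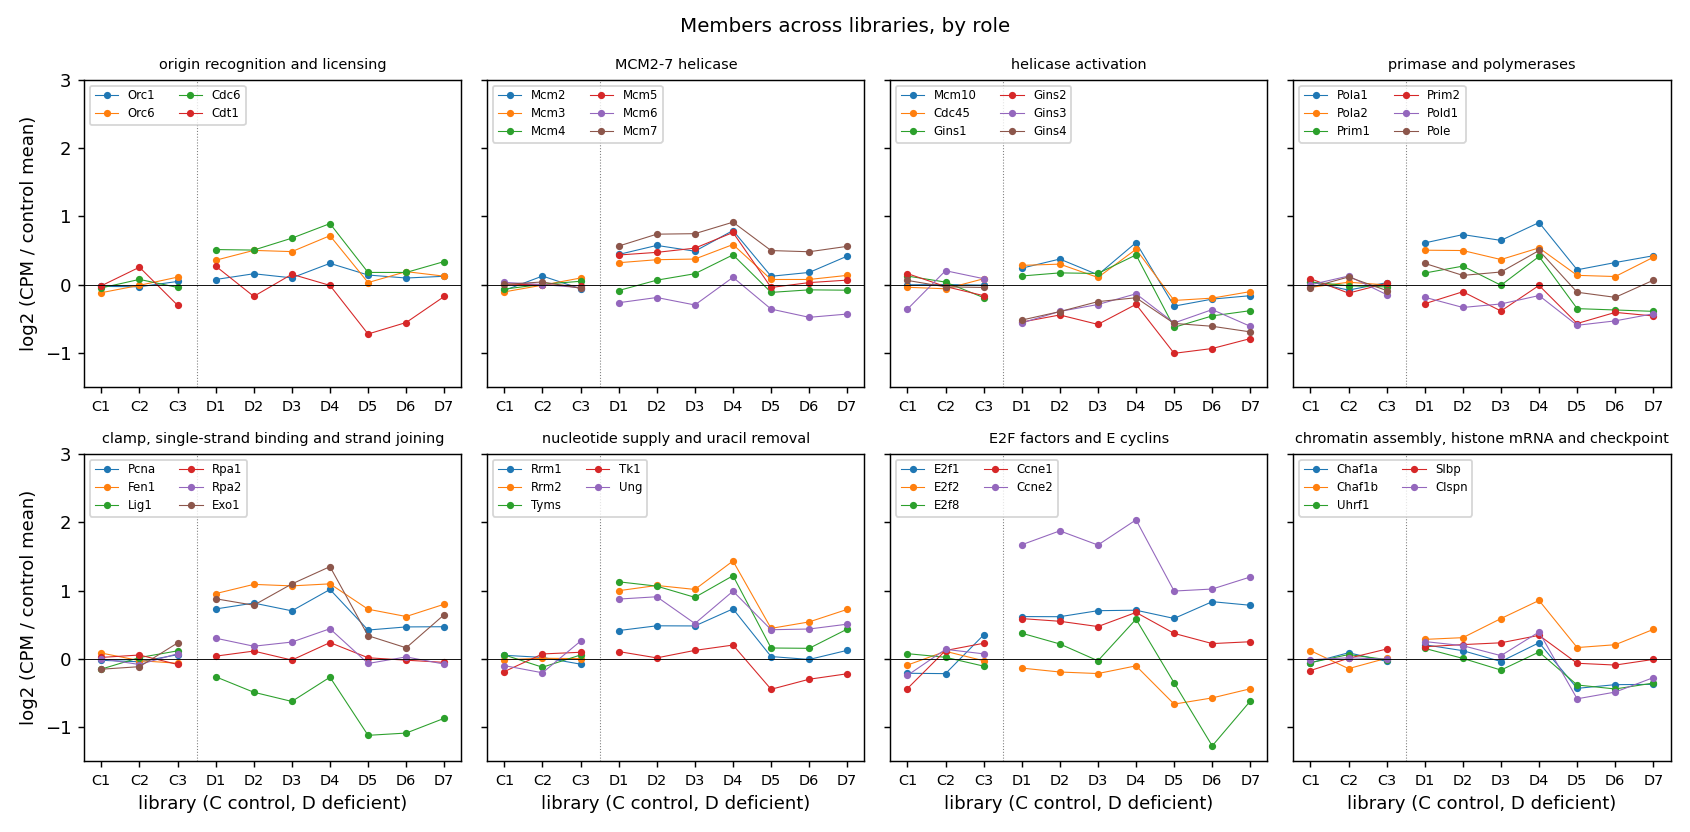
Each panel is a role group, with control libraries C1 to C3 and deficient libraries D1 to D7 on the horizontal axis and log2 of CPM over the control mean on the vertical axis; lines link the values of a gene, and the order of libraries within a group has no meaning. In nearly every line library D4 is high and D5 to D7 are low, also for genes such as Lig1 and Gins2 that lie below the controls throughout.

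The batch term itself reached no call in this fit, and 3 calls without a count filter. Of the 43 members 0 passed for batch 2 against batch 1 (adjusted p from 0.629 to 0.966, edgeR), against 0% of all genes tested. At an unadjusted p below 0.05 (edgeR) there were 12 of 43, against 1038 of the 13699 genes tested. By DESeq2 or limma-voom 0 members passed. The batch coefficient was below 0 for 42 of 43, the exception being E2f1, against 6739 of the 13699 genes tested. The median batch coefficient was -0.20 over the members and 0.003 over all genes tested. The product of diet and batch passed for 0 members, also against 0% of all genes (adjusted p from 0.947 to 0.990, edgeR), and for 0 by DESeq2 or limma-voom. Its unadjusted p was below 0.05 (edgeR) for 2 members, against 565 of the 13699 genes tested. The smallest group in this test held 1 control library. Within batch 1 alone 16 members were higher and 4 lower, against 24.7% and 23.6% of all genes tested there. Within batch 2 alone 7 were higher and 15 lower, against 23.5% and 23.4%.

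Of the 21 called members, 10 stayed past the threshold in the same direction in all 24 alternative fits: Ccne2, Fen1, Mcm7, Pcna, Pola1 and Rrm2 higher, and Gins2, Gins4, Mcm6 and Pold1 lower. Their extremes over the fits were 0.97 to 1.76 for Ccne2, 0.71 to 0.93 for Fen1 and 0.57 to 1.05 for Rrm2. Mcm7 ranged from 0.51 to 0.67, Pcna from 0.35 to 0.76 and Pola1 from 0.28 to 0.66. In the other direction Gins2 ranged from -0.80 to -0.61, Gins4 from -0.66 to -0.44, Mcm6 from -0.47 to -0.25 and Pold1 from -0.47 to -0.33.

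Per exon length, Pcna was the most abundant member in controls, at 63.9 ± 2.44 RPKM, counts scaled by library total and exon length (SD, n = 3), close to Mcm6 at 62.9 ± 1.72, a gap smaller than either SD. Mcm4, at 45.5 ± 1.81, came next, and Ung, at 1.42 ± 0.25, was the lowest. In deficient libraries Pcna stood at 102 ± 15.8 RPKM (SD, n = 7) and Mcm6 at 52.6 ± 7.55, and these ranges no longer met. Abundant and scarce members stood in both directions: Mcm6 fell and Pcna rose at the top of the range, and Ung rose while Gins3 fell lower down.

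The promoter windows of RefSeq, from 250 bases before to 50 bases after the start, were matched for 35 of 43 members; Mcm4, Gins1, Prim2, Gins4, Exo1, Ccne2, Pole and Gins2 were not matched. The E2F core TTTNNCGC stood on either strand in 15 of 35 members (42.9%, Wilson 95% interval 28.0% to 59.1%), in 5.93% of all 27025 genes with a window and in 9.95% of tested genes. The stricter TTTGGCGC, a case of that core, stood in 6 of 35 (17.1%), against 0.585% of all genes and 1.18% of tested genes. The core was found in 3 of 11 members that were higher, 5 of 5 that were lower (Mcm6, Pold1, Gins3, Lig1 and E2f2) and 7 of 19 that did not pass. For 5 of 5 the Wilson 95% interval was 56.55% to 100%. The CCAAT box, bound by NF-Y, stood in 23 of 35 members (65.7%), in 41.1% of all genes and in 43.1% of tested genes. TTTGAA and TTCGAA are forms of the cell cycle homology region known from mitosis genes. They stood in 6 and 1 of 35 members (17.1% and 2.86%) and in 13 and 3 of 19 mitosis genes. The shares were 20.2% and 1.80% over all genes and 14.6% and 2.61% over tested genes. For TTTGAA the members thus lay between these backgrounds in the full window. Within the 100 bases before the start TTTGAA stood in 4 of 35 members (11.4%), against 6.76% of all genes and 4.10% of tested genes. A gene counted when any of its windows held a match, and the core matches of Pold1, Lig1 and E2f2 lay after the start. In the 100 bases before the start alone the E2F core stood in 4 of 35 members, against 2.17% of all genes and 3.65% of tested genes. These were 0 of 11 that were higher, 2 of 5 that were lower and 2 of 19 that did not pass. The split by direction thus depends on the window and rests on few genes.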

How the data were processed

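The data were raw read counts per Ensembl gene for 10 TH2 libraries, 1 column per library, as deposited by the authors. The submitters' processing notes name STAR 2.7.10a, HTSeq 0.13.5 and the build GRCm38. Libraries were made with a stranded total RNA globin kit, per the labels' protocols. Which strand setting and which annotation release the counting used is not given in the sources used here. Exons of 13 members share bases with a gene on the other strand, among them Orc6 (6.93% with Vps35) and Mcm7 (7.25% with Ap4m1). Total RNA also holds unspliced RNA, and reads shared between near-identical genes may be lost.

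Symbols and coordinates came from GENCODE M21 (GRCm38; 49412 of 49671 IDs matched), and promoters from RefSeq. The members, gene lists and tests were chosen with earlier results of these data known. Every member is accounted for; values in each library are given for the 2 members of smallest adjusted p in each role group, for every member that rose and for the one of highest adjusted p, and from other lists up to 4 genes of smallest adjusted p, plus up to 2 that passed against the list's main direction.

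Counts were fitted in R 4.3.3 with edgeR 4.0.16 (filterByExpr with a minimum count of 10, 13699 genes; TMM; glmQLFit, robust; glmQLFTest) on diet and batch, with Benjamini-Hochberg adjustment over all genes tested. The common biological coefficient of variation was 12.7%. DESeq2 1.42.0, limma-voom (limma 3.58.1), other scalings, filters and thresholds, single batches, thinned counts and each library left out were alternatives. Steps were tested on simulated counts. Wilson intervals of promoter shares cover counting error only. Labels were by treatment and batch, and replicate numbers follow accession order.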

Additional observations from a re-analysis of the deposited data

Results flagged for a closer look

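Orc1, which encodes the ATPase subunit of the origin recognition complex, stood at 30.5 CPM in deficient library 4, against 25.9 to 27.4 CPM in the other 6 deficient libraries and 24.0 to 25.4 CPM in controls. The gap to the next library, relative to the range of the group, was above Dixon's limit for 7 libraries. This was so for 1 of the 43 members, where chance alone gives about 5% of groups. Library 4 was also the highest deficient library for 39 members, so its place in Orc1 is not separate from the other genes.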

How the results depend on the processing

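Of 1032 values of single members over 24 alternative fits, 949 kept their direction and side of the threshold, 35 fell short of it, 46 newly passed and 2 turned. Both turned in batch 2 alone: the log2 fold change of Cdc45 was -0.30 and that of Ccne1 -0.051. The counts of 13 higher and 8 lower members were 16 and 4 in batch 1 and 7 and 15 in batch 2, and 23 and 7 without deficient libraries 5 to 7. Leaving out 1 library at a time gave 7 to 19 higher, against 24.5% to 31.4% of all genes, and 6 to 9 lower, against 23.8% to 30.5%. The lowest higher counts, 7 and 8, came without control library 1 (25.3% of all genes) and 2 (24.5%), and the highest, 19, without deficient library 5 (31.4%). At an adjusted p below 0.01 there were 7 higher, against 22.7% of all genes, and all 8 lower members still passed, against 22.8%. At a change of at least 1.5-fold there were 6 higher and 2 lower, against 17.6% and 16.7%. Total counts as scaling gave 18 and 8, with 33.6% of all genes higher and 24.2% lower. Without a count filter the median of all genes was 0.19, that of the members 0.15, and 3 members passed as lower for the batch term. The members' median was -0.05 in batch 2 alone. The spread over deficient libraries was 15.9% on TMM-scaled totals. In the 100 bases before the start, TTTNNCGC stood in 11.4%, TTTGGCGC in 2.86% and TTCGAA in 0% of members. The cause of these changes was not tested. No paired analysis was possible because the labels give no replicate numbers. The shallower controls limit low genes such as E2f1, Ung and Cdt1.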

Other observations

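CDK inhibitors, which hold cells before S phase, were mixed. Cdkn1a, which encodes p21 and binds PCNA, rose from 14.6 ± 3.01 CPM to 67.1 ± 8.06 CPM (log2 fold change 2.11, SE 0.16, adjusted p = 1.51e-07, edgeR), and every deficient library was above every control. Cdkn1b, which encodes p27, changed from 208 ± 17.3 CPM to 113 ± 7.66 CPM (log2 fold change -0.97, SE 0.07, adjusted p = 2.27e-08, edgeR), and every deficient library was below. Cdkn1c rose by 1.18 at levels of at most 3.67 CPM, and Cdkn2d changed by -0.61. Of the 6 inhibitors tested 2 were higher and 2 lower, against 29.4% and 28.6% of all genes tested.

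Of the genes of the replication checkpoint and of fork repair 11 of 23 were lower and 4 higher, with a median of -0.34. Over all genes tested 28.6% were lower and 29.4% higher. Fanci, of the Fanconi anaemia pathway, changed from 44.9 ± 2.18 CPM to 18.1 ± 3.06 CPM (log2 fold change -1.40, SE 0.11, adjusted p = 5.10e-08, edgeR), Bard1, the partner of Brca1, by -1.09, and the cohesin subunits Smc3 and Smc1a by -0.77 and -0.56. In the other direction Msh6, of mismatch repair, rose by 0.53 and Rad1, of the checkpoint clamp, by 0.57 (adjusted p = 1.16e-05 and 0.000526, edgeR). Rrm2b over Rrm2, per exon length, was 0.141 ± 0.0083 in controls (SD, n = 3), 0.133 to 0.170 in deficient libraries 1 to 4 and 0.211 to 0.273 in libraries 5 to 7. Samhd1, which breaks down deoxynucleotides and was named after its values were seen, stood at 559, 574 and 569 CPM across the controls, while the deficient libraries gave, from 1 to 7, 235, 232, 234, 244, 408, 369 and 332 CPM (log2 fold change -1.04, SE 0.19, adjusted p = 0.00153, edgeR).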
